A study of Mus musculus with 2 samples.

Results

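Effector helper CD4 T cells were taken from the live immune cells of the stomach of TxA23 mice by their RNA counts. A cell counted as one when it held at least 1 UMI (1 captured RNA molecule) of Cd3d, Cd3e or Cd3g and at least 1 of Cd4, and none of Cd8a, Cd8b1, Foxp3 or Cd79a. It also needed a summed count of at least 2 for Tnfsf8, Tnfsf11 and Maf and of at most 1 for Lag3, Izumo1r and Myb, with fewer than 2 of 7 follicular helper genes (Cxcr5, Bcl6, Il21, Tox2, Sostdc1, Angptl2, Il4) detected. The cells were thus chosen by measured counts of these genes, and their values for these genes are no finding. The rule found 189 cells among 32372 cells with at least 200 genes and at most 10% mitochondrial UMIs, 135 of 20579 after IL-27 and 54 of 11793 after PBS. They were 189 of the 2551 cells with the same Cd3, Cd4, Cd8, Foxp3 and Cd79a counts, called CD4 Foxp3-negative T cells here.

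TxA23 mice carry a transgenic T cell receptor for a stomach antigen and develop autoimmune gastritis, and every mouse of both groups had this genotype. The IL-27 group was 3 females that received 800 ng of recombinant IL-27 (its p28 and EBI3 chains covalently joined, 4 µg per mL in 200 µL) from a subcutaneous osmotic pump. The PBS group was 1 female and 1 male with pumps of PBS alone. Pumps were placed at 3 months of age and the mice were killed 4 weeks later. CD45+ cells negative for propidium iodide, a dye that enters dead cells, were sorted from flushes of the gastric mucosa. Each group was deposited as 1 library, so no difference between IL-27 and PBS had a replicate check and no p-value was computed. Barcode suffixes split the libraries into 3 IL-27 wells and 2 PBS wells, whose values are given as a description, since the labels do not say that a well is a mouse. PBS well 2 held 3074 UMIs of 4 Y-linked genes and the other 4 wells held 0, so sex and treatment cannot be told apart in any difference that rests on PBS well 2. Cell Ranger 3.0.0 and the build mm10 are named in the submitters' processing notes.

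Helper T cells instruct other immune cells through membrane ligands and secreted cytokines. Tnfsf8 encodes CD30 ligand and Tnfsf11 encodes RANKL, a pair of TNF family ligands found on activated T cells. Maf encodes a transcription factor of helper and regulatory cytokine genes, and Cd40lg encodes CD40 ligand, the signal by which helper cells license B cells and dendritic cells. IL-27 acts on CD4 T cells through Il27ra and Il6st, and in cultured T cells it is known to raise Maf and Il10. Naive T cells recirculate through lymphoid tissue with Ccr7, and antigen-experienced cells in tissue carry more integrins, S100 proteins and galectins.

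On the reference annotation of GRCm38, which is also called mm10, Tnfsf8 lies on chromosome 4 at 63831308 to 63861347 (minus strand). Tnfsf11 lies on chromosome 14 at 78277445 to 78308043 (minus strand), and Maf on chromosome 8 at 115682942 to 115707794 (minus strand). Cd40lg lies on chromosome X at 57212143 to 57224042 (plus strand). All of them are annotated as protein-coding, and counts covered whole genes.

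Which of the gate genes a cell held varied widely, and no single one was shared by all. Maf had a UMI in 123 of the 189 cells, Tnfsf8 in 112 and Tnfsf11 in 77. The commonest combinations were Tnfsf8 with Maf (41 cells), Maf alone (40) and Tnfsf8 alone (31). Tnfsf11 with Maf was found in 26 cells, Tnfsf8 with Tnfsf11 in 24, all of them in 16 and Tnfsf11 alone in 11. These genes chose the cells, so their counts are a description. A summed count of exactly 2, the lowest the rule takes, was held by 75 cells (39.7%). The rule also allowed 1 UMI of Lag3, Izumo1r or Myb, and 96 of the cells held it, mostly Izumo1r (71 cells).

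**Figure D1:**
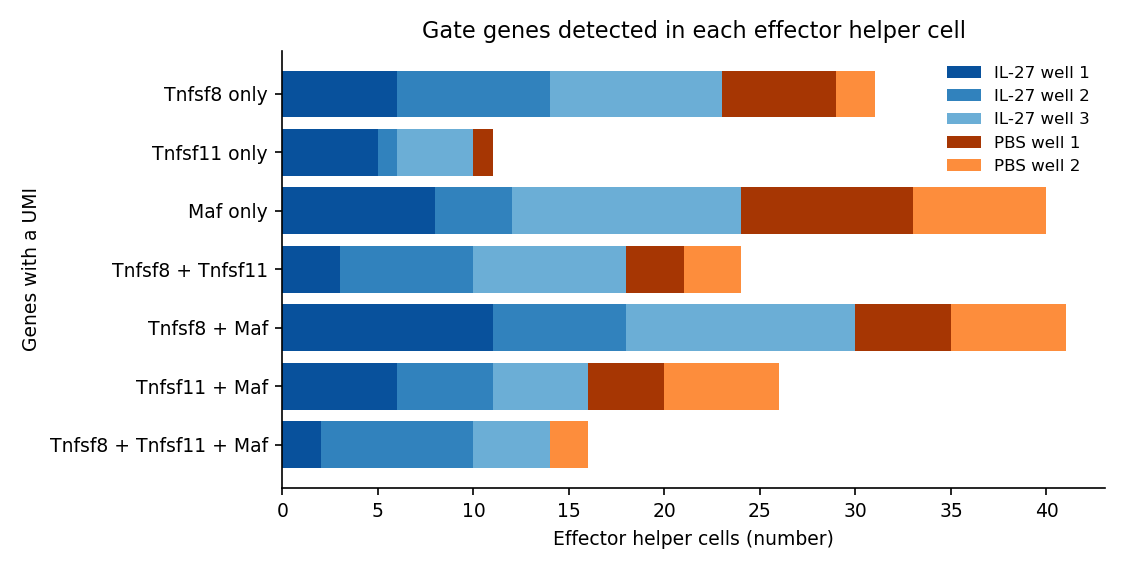
Number of effector helper cells (x axis) that held a UMI of each combination of Tnfsf8, Tnfsf11 and Maf (y axis), with the bar split by well. Maf alone and Tnfsf8 with Maf were the longest bars, with 40 and 41 cells, and Tnfsf11 alone the shortest with 11.

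The label of helper cells was checked against Cd40lg, the 1 marker that the rule did not use. Cd40lg was 159, 113 and 136 CPM (a gene's UMIs scaled to the same total in every set of cells) in the effector helper cells of IL-27 wells 1, 2 and 3, and 167 and 109 in PBS wells 1 and 2. In the other CD4 T cells, the 553 Foxp3-negative cells that had at most 1 UMI on each of the gate sums and fewer than 2 of the follicular helper genes, it was 107, 98.9, 123, 70.7 and 29.6 in the same order. Effector helper cells were higher in all 5 wells, least in IL-27 wells 2 and 3. Over all wells the level was 136 against 98.7 CPM, a ratio of 1.38 (95% counting interval 1.08 to 1.74). Cd40lg was lower in the cells with at least 2 UMIs on both gate sums (61.6 CPM), in those with Lag3, Izumo1r or Myb alone (39.7) and in Foxp3-positive cells (10.1). It was 102 CPM in the cells with at least 2 of the follicular helper genes, called cells with follicular helper genes here. A Cd40lg UMI was found in 58 of the 189 cells (30.7%, exact 95% interval 24.2 to 37.8), and in 0.0893% of B cells, which mark the free-RNA background. Median depth was 3953 UMIs in effector helper cells and 2913 in B cells. Cells with a Cd40lg UMI were deeper, with a median of 5248 UMIs against 3350 in cells without. Cd3e was found in 188 of the cells and Trac in 133. The summed level of 15 B cell genes was 101 CPM, against 12601 in B cells, and 6 of those genes were at 0, among them Ebf1, Pax5, Ighd and Ly6d. Of 13 myeloid genes the summed level was 319 CPM, against 377 in the other CD4 T cells.

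The share of effector helper cells differed between the libraries in opposite directions on different denominators. They were 0.543%, 0.665% and 0.770% of all cells in IL-27 wells 1 to 3 against 0.442% and 0.477% under PBS. Every IL-27 well was above both PBS wells, but the exact intervals of all wells overlapped. The library shares were 0.656% (0.550 to 0.776) and 0.458% (0.344 to 0.597), a ratio of 1.43 (1.04 to 2.003). Of CD4 Foxp3-negative T cells, they were 5.62%, 6.69% and 8.90% in IL-27 wells 1 to 3 against 6.15% and 16.2% under PBS. PBS well 2 stood far above the rest and PBS well 1 lay among the IL-27 wells. The ratio was 0.796 (0.576 to 1.11), it turned to 1.13 without PBS well 2, and it was 0.432 without PBS well 1. Restricted to cells that carried Xist RNA but no RNA of the Y-linked genes, it was 1.42. This restriction kept 1 of the 26 effector helper cells of PBS well 2 and 17 of the 28 of PBS well 1.

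The size of the CD4 T cell compartment moved with these shares, and its part in them was not tested. CD4 Foxp3-negative T cells were 9.40% of the IL-27 library and 5.22% of the PBS library, a ratio of 1.80 (1.64 to 1.97), and PBS well 2 held only 161 of them against 455 in PBS well 1. Within them, cells with Lag3, Izumo1r or Myb alone were 42.7%, 43.0% and 46.8% after IL-27, 47.0% for PBS well 1 and 22.4% for PBS well 2. After every cell was thinned to 1500 UMIs, leaving out 1745 shallower IL-27 cells and 831 PBS cells, effector helper cells were 4.85% of the IL-27 and 7.89% of the PBS CD4 Foxp3-negative cells. PBS well 2 was still highest, with 16.4% against 4.22% to 5.92% in the other wells. Of all cells the thinned shares were 0.335% and 0.309%, a ratio of 1.08 in place of 1.43, with PBS well 2 highest at 0.372%. Median depth of the effector helper cells was 3648, 4126 and 4241 UMIs in IL-27 wells 1 to 3 against 3920 and 2976 under PBS.

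**Figure D2:**
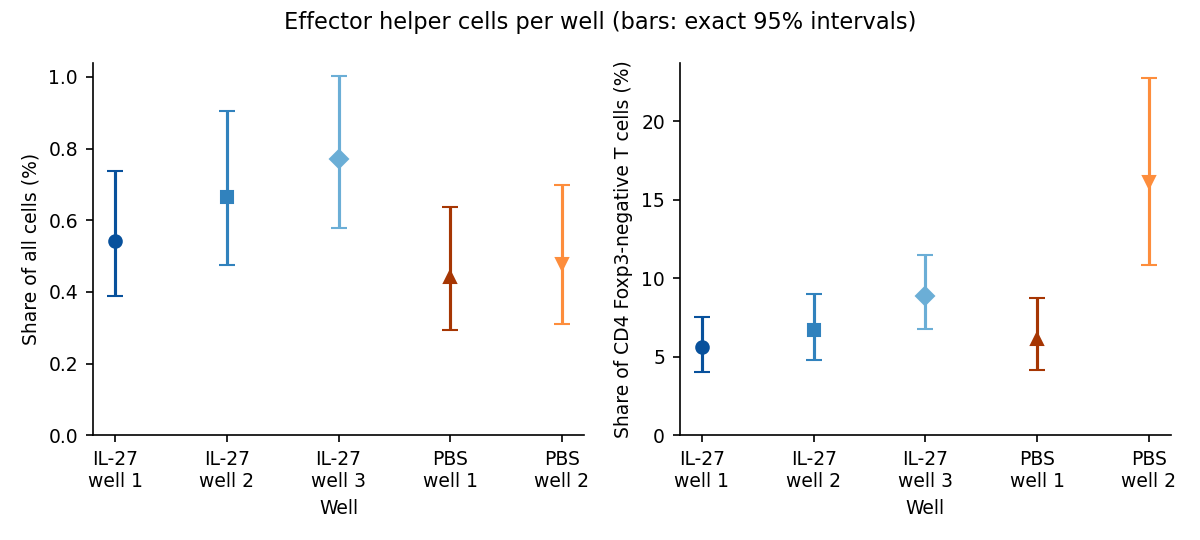
Effector helper cells as a percentage of all cells (left) and of CD4 Foxp3-negative T cells (right) in each well, with exact 95% binomial intervals for counting error. On the left the IL-27 wells sit at 0.543% to 0.770% above both PBS wells, and on the right PBS well 2 sits alone at 16.2%.

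A larger number of cells carried the same genes together with Lag3, Izumo1r or Myb. With fewer than 2 of the follicular helper genes, 776 cells had a Tnfsf8, Tnfsf11 and Maf sum of at least 2. Of these 776 cells, 587 (75.6%) also had a Lag3, Izumo1r and Myb sum of at least 2. The limit on Lag3, Izumo1r and Myb thus left out most of them. That fraction was 81.8%, 75.6% and 68.2% in IL-27 wells 1 to 3 against 80.3% and 65.3% under PBS. The 587 cells were set apart after their number had been seen. Izumo1r and Lag3 are receptors that anergic and exhausted T cells carry. Gene by gene the Cd40lg level of these cells was below that of effector helper cells (61.6 against 136 CPM), as were Il7r (123 against 411), Il18r1 (25.3 against 151) and Itgb1 (182 against 520). Pdcd1, the inhibitory receptor PD-1, was higher in them (199 against 127), and Bhlhe40 was close (100 against 123).

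The comparison with the other CD4 T cells describes what the rule selected and carries no test. Among 3098 genes with at least 50 CPM in 1 of the sets and 100 UMIs in all, gate genes left out, 71 (2.29%) were at least 2-fold higher in effector helper cells and 37 (1.19%) at least 2-fold lower. Of these, 40 were higher in every well and 24 lower in every well. By TMM scaling, which centres the bulk of the genes, the counts were 55 higher and 45 lower. Effector helper cells were deeper than the other CD4 T cells, with medians of 3953 and 3256 UMIs, and in cells of 2000 to 5000 UMIs the counts were 43 and 22 over fewer genes. Ratios of CPM are given here with intervals for counting error only.

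The 12 highest and 12 lowest ratios were taken only from genes on the same side in all 5 wells. The highest included S100a11, Bhlhe40, Cxcr6, Tnfrsf4, Tigit and Ahr. S100a11, a calcium-binding protein of effector cells, was 506, 701 and 457 CPM in IL-27 wells 1 to 3 against 509 and 764 under PBS. In the other CD4 T cells of the same wells it was 222, 160, 112, 104 and 404. Each well was higher in effector helper cells, and the ranges did not overlap. The ratio was 3.29 (2.86 to 3.79). Bhlhe40, a transcription factor of cytokine-producing and resident T cells, was 70.6, 127, 146, 167 and 87.3 CPM against 22.7, 25.2, 25.6, 30.3 and 29.6, also without overlap, a ratio of 4.82 (3.41 to 6.88). Cxcr6, a chemokine receptor of resident T cells, had a ratio of 4.02 (2.87 to 5.68). It was highest in PBS well 2 in both sets, with 360 CPM in effector helper cells and 266 in the other CD4 T cells, against 47.1 to 122 and 0 to 44.2 in the remaining wells. Tnfrsf4, the costimulatory receptor OX40, was 291 against 96.6 CPM (3.01, 2.49 to 3.66), and Tigit, an inhibitory receptor, 133 against 33.2 (4.02, 2.94 to 5.53). Ahr, a ligand-activated transcription factor of type 17 and barrier lymphocytes, had 81.7 against 24.0 CPM. The others were Eea1, an endosome tether (log2 ratio 1.88), Podnl1 (1.86), H1f0, a linker histone (1.66), Acot7, an acyl-CoA thioesterase (1.61), and Bcl2a1d, a survival factor with near-identical copies (1.91).

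Penk had the highest ratio, but from few cells, and with a gate sum of at least 3 its log2 ratio went from 4.18 to 2.01, below those of Cxcr6 (2.22) and Bhlhe40 (2.17). It encodes proenkephalin, the precursor of opioid peptides. Its 296 UMIs in effector helper cells came from 17 cells, and 1 cell gave 105 of them. Penk was 241, 9.41 and 401 CPM in IL-27 wells 1 to 3 against 1037 and 284 under PBS, and 0 to 37.2 in the other CD4 T cells. PBS well 1 was highest and IL-27 well 2 held 1 cell with Penk. Foxp3-positive cells had more Penk (521 CPM) and the cells with both gate sums nearly as much (287).

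Genes of naive and recirculating T cells were lower. Igfbp4, a growth factor binding protein of naive CD4 T cells, was 259, 179 and 90.6 CPM in IL-27 wells 1 to 3 against 194 and 54.5 under PBS. In the other CD4 T cells it was 670, 955, 974, 1226 and 88.7. All wells were lower, with the smallest gap in PBS well 2, and the UMIs of effector helper cells came from 17 cells. The ratio was 0.177 (0.147 to 0.211). Lef1, a transcription factor of naive cells, was 143 against 383 CPM, and Ccr7, the receptor for lymph node entry, 106 against 284. Satb1, a chromatin organiser of T cells, was 97.8 against 260 CPM and Cd27, a costimulatory receptor lost with differentiation, 108 against 281. Actn1, Klhdc2, Dapl1, Gpr146, Txk and Klhdc1 were also among the 12 lowest, with log2 ratios of -1.84, -1.73, -1.70, -1.69, -1.57 and -1.34. B cells, 14551 of all cells, had 116 CPM of Ccr7 and 98.5 of Satb1, and 0.667 of Igfbp4 and 2.46 of Lef1. The part of free RNA in Ccr7 and Satb1 was not tested.

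**Figure D3:**
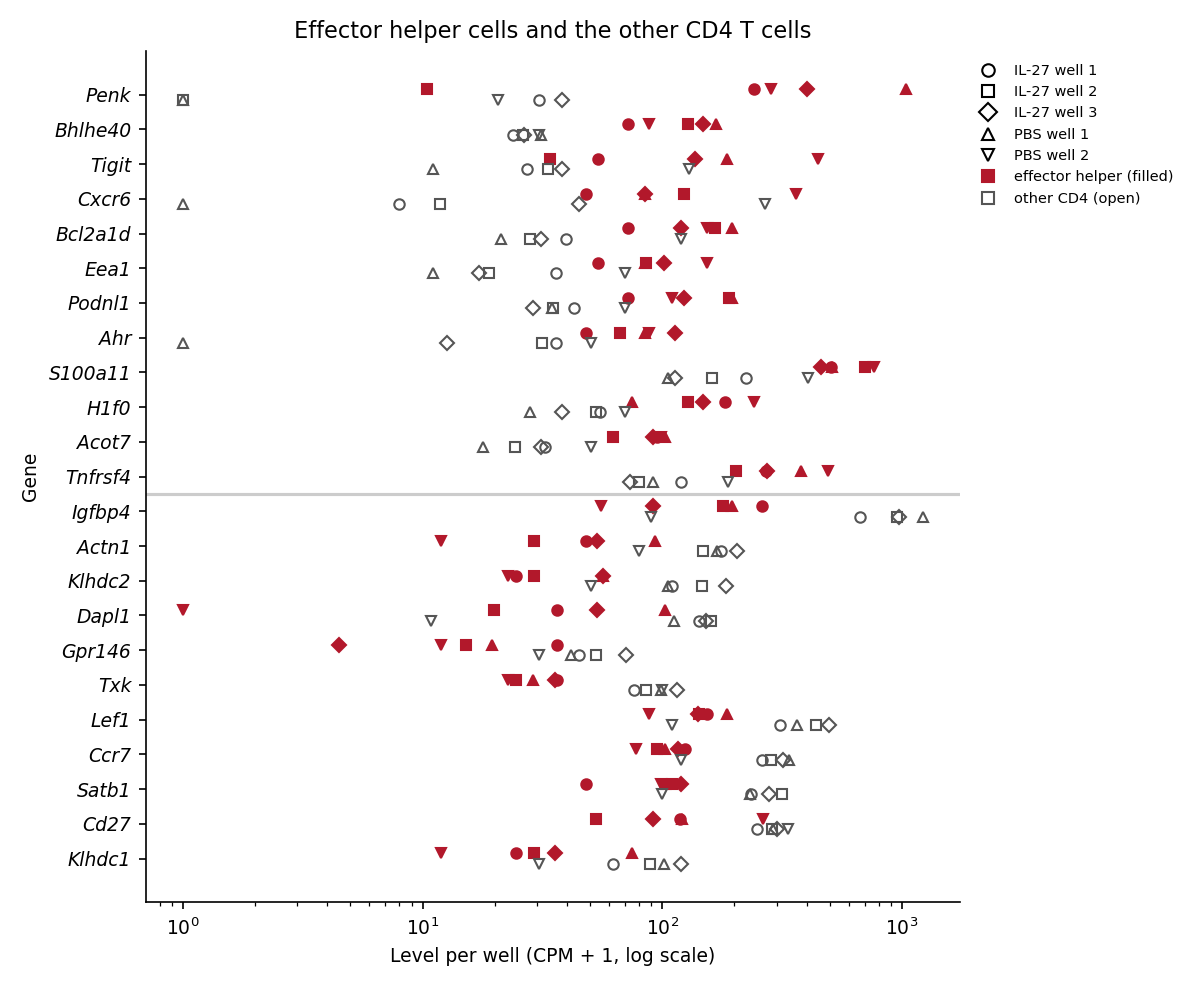
Level of the 12 genes with the highest (top) and 11 of the 12 with the lowest ratios (bottom) in effector helper cells (filled) and the other CD4 T cells (open), as CPM plus 1 on a log axis, 1 symbol per well. Each gene lies on the same side in all 5 wells, which is how they were chosen. Satb1 has almost no gap in PBS well 2, with 98.2 against 98.6 CPM.

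Values on both sides of the threshold of the rule are given as a description. Cells with a Tnfsf8, Tnfsf11 and Maf sum of 0, 1, 2 and at least 3 numbered 399, 154, 75 and 114, other criteria held. Igfbp4 was 973, 640, 158 and 152 CPM in this order, and Lef1 438, 258, 206 and 107. The step just at the threshold was large for Igfbp4 and small for Lef1. Itgb1 was 127, 255, 371 and 605 CPM, Icos 47.6, 82.7, 98.3 and 202, and Cd40lg 96.8, 103, 130 and 139. Median depths were 3124, 3486, 4073 and 3884 UMIs, so the cells outside the threshold were also shallower.

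Gene lists were read with a lower limit of 20 CPM and 30 UMIs, under which 688 of 6179 genes (11.1%) were at least 1.5-fold higher and 359 (5.81%) at least 1.5-fold lower than in the other CD4 T cells, with a median log2 ratio of 0.073. In the effector memory and residency list 20 of 24 measured genes were higher and 1 (Cd69) was lower, with a median of 1.25. S100a4 was 290 against 72.1 CPM, though lower in PBS well 2 (98.2 against 197), Lgals1 (galectin-1) 1229 against 413, Itgb1 (integrin beta 1) 520 against 166 and Cd44 121 against 46.5. In the naive and central memory list 11 of 17 were lower and 1 was higher, with a median of -1.24. The higher gene was Il7r, the receptor that sustains both naive and memory T cells, at 411 against 261 CPM. Tcf7, a factor of naive and stem-like T cells, was 331 against 425. The effector memory and residency list summed to 8334 CPM in effector helper cells and 9182 in Foxp3-positive cells. It was 5157 in cells with follicular helper genes, 4580 in those with both gate sums and 2619 in those with Lag3, Izumo1r or Myb alone. The naive and central memory list summed to 3234 in effector helper cells, and in those 4 sets to 2573, 2464, 3183 and 4605.

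All 12 measured genes of the type 17 helper list were higher, with a median of 1.79. The lists were chosen with earlier results of these data known, so this count is a description. Cxcr6, Podnl1 and Ahr of this list were also among the 12 highest ratios above. The list also holds genes of resident and other effector cells, such as Cxcr6, Ccr2 and Batf. Its 18 genes summed to 1465 CPM in effector helper cells and 617 in the other CD4 T cells. The sum was 1657 in Foxp3-positive cells, 1244 in those with follicular helper genes and 1237 in those with both gate sums. In cells with Lag3, Izumo1r or Myb alone it was 780. Ccr6, its chemokine receptor, was 5.89, 42.4 and 80.2 CPM in IL-27 wells 1 to 3 against 83.3 and 65.5 under PBS, against 0 to 19.7 in the other CD4 T cells. IL-27 well 1 held 1 UMI and lay below its other CD4 T cells. Tmem176a and Tmem176b, ion channel genes, were 107 against 19.9 and 140 against 36.8 CPM, and Rora, a nuclear receptor, 81.7 against 37.3. B cells had 171 CPM of Ccr6, and the other CD4 T cells 7.16. Il17a and Il22, the cytokines of the program, had 0 UMIs in 189 cells, which allows a share of up to 1.59% of cells with a UMI by 3 counts of the total, or 1.93% by the exact binomial interval.

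Other helper programs showed fewer genes. Of the Th1 list 3 of 7 measured genes were higher, among them Il18r1, a receptor chain for IL-18, at 151 against 58.8 CPM and higher in all wells. The defining Th1 factor Tbx21 had 7 UMIs in 6 cells, and Ifng 12 UMIs in 9 cells, of which 5 were in PBS well 2. Of the Th2 list 4 of 6 were higher and 1 was lower. Gata3, its transcription factor, was 120 against 74.1 CPM and was found in 63 cells. Il5 and Il13 had 0 UMIs, as had Il10. Il4 was limited by the rule. Il2, the T cell growth factor, had 19 UMIs in 12 cells, 8 of them in IL-27 well 2, and Tnf 54 UMIs in 35 cells (18.5%), a gene that 8.62% of B cells also held. In the follicular helper list 4 of 8 measured genes were higher, among them the costimulator Icos at 165 against 58.3 CPM.

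Receptors that tune T cell responses were higher in part. Of the inhibitory receptors 4 of 7 were higher (Pdcd1, Ctla4, Tigit, Cd200r1) and 0 lower, and of the costimulatory receptors 6 of 12 were higher (Icos, Tnfrsf4, Tnfrsf18, Cd226, Tnfrsf1b, Tnfrsf25) and 1 lower (Cd27). In the regulatory T cell list 10 of 12 were higher, with a median of 1.40, although cells with a Foxp3 UMI had been left out. Il2ra, the high-affinity IL-2 receptor chain, was 88.6 against 27.6 CPM, and 265 in Foxp3-positive cells. Ikzf2 (Helios) was 176.1 against 111, and 565 in Foxp3-positive cells. The summed level of the 16 listed genes was 1502 CPM in effector helper cells, 684 in the other CD4 T cells and 4250 in Foxp3-positive cells, and how many regulatory cells without a Foxp3 UMI were included was not tested.

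Immediate activation genes went the other way. Of the activation list 9 of 22 were lower, among them Cd69, Nr4a1, Egr1, Fos and Myc, and 1 was higher (Bhlhe40). Cd69, an early activation and retention receptor, was 81.7 against 141 CPM. Of 14 measured dissociation stress genes 4 were lower, Fos, Egr1, Dnajb1 and Zfp36, and 0 were higher. The interferon response list had a median of 0.02, with 2 of 30 genes higher and 4 lower. Of the cell cycle list 10 of 14 were higher, with a median of 0.92, and this rested on IL-27 well 3: without that well the median was 0.05. Glycolysis genes had a median of 0.29, with 2 of 12 higher. Of the homing receptors 8 of 17 were higher (Ccr2, Ccr4, Ccr6, Ccr8, Cxcr4, Cxcr6, Itga4, Itgae) and 4 were lower, among them Ccr7, S1pr1 and Gpr18.

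**Figure D4:**
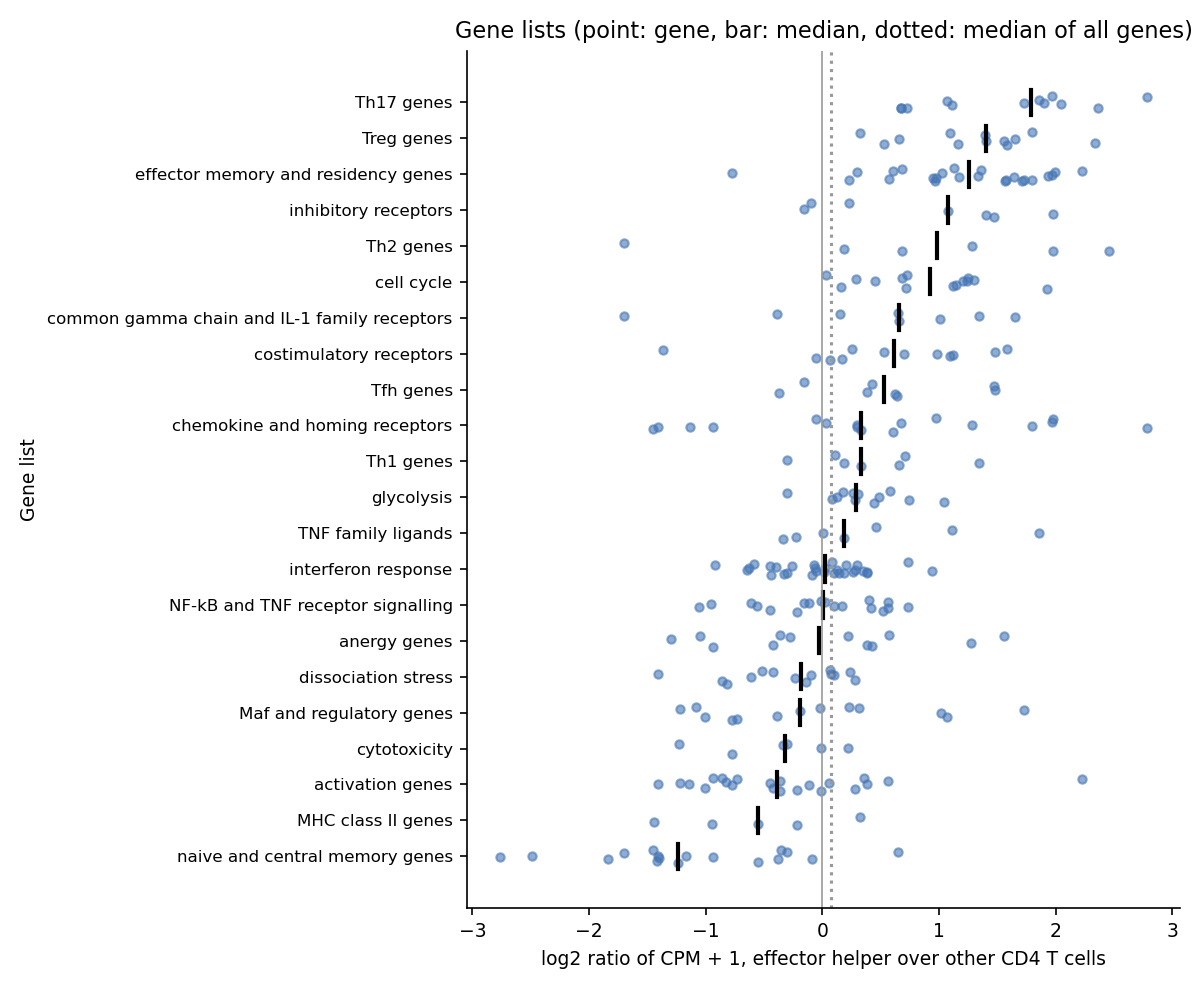
log2 ratio of CPM plus 1 in effector helper cells over the other CD4 T cells for every measured gene (point) of each list with at least 5 of them, the list's median as a bar and the median of all genes as a dotted line. Against this set of cells the type 17 list lies highest at 1.79 and the naive and central memory list lowest at -1.24. The lists were chosen with earlier results of these data known.

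The effector helper cells were not uniform, and subsets with Tmem176 or Ccl5 RNA were picked out after their values had been seen. Tmem176a or Tmem176b was found in 36 cells (5, 11 and 13 in the IL-27 wells, 4 and 3 in the PBS wells). These 36 cells had 116 CPM of Ccr6 (95% Poisson interval 77.0 to 168) against 31.9 (19.5 to 49.2) in the other 153, and 787 CPM of Il7r against 266. S100a4 was 642 against 155 CPM and Igfbp4 37.3 against 199. Itgb1 went the other way, with 265 against 618 CPM, as did Pdcd1, with 53.8 against 155. The 36 cells were deeper, with a median of 5532 UMIs against 3519.

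Ccl5, a chemokine of cytotoxic and memory T cells, was found most often in PBS well 2. Its 356 UMIs came from 21 cells, 2, 4 and 3 after IL-27 and 2 and 10 under PBS, and 1 cell gave 167 of them. In the other CD4 T cells it was also highest in PBS well 2, with 6082 CPM against 179 to 600 elsewhere. The 21 cells had 1219 CPM of Nkg7, a granule protein, against 119 in the other 168, and 436 CPM of Cxcr6 against 83.4. Eomes, a transcription factor of cytotoxic cells, was 180 against 13.9 CPM and Ifng 89.8 against 6.32. Among the gate genes, Tnfsf8 was 167 against 331 CPM, Tnfsf11 77.0 against 205 and Maf 629 against 293, and since the rule needs 2 UMIs of these genes, cells low in some of them had to hold more of another. Ccr6 was 116 (52.8 to 219) against 49.3 (35.1 to 67.4) CPM, but its 9 UMIs came from 3 of the 21 cells. Of the other 168 cells, 21 held Ccr6. Cd40lg was lower in the 21 cells with Ccl5, at 38.5 (7.94 to 113) against 145 (120 to 174), and Igfbp4 had 0 UMIs. Median depths were 3495 and 4084 UMIs. Only 2 UMIs of Ccl5 were found in the cells with Tmem176a or Tmem176b, at 8.28 CPM.

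Between the effector helper cells of the libraries, 61 of 1213 genes (5.03%) were at least 1.5-fold higher in IL-27 and 43 (3.54%) at least 1.5-fold lower, with a median log2 ratio of 0.026. The summed UMIs were 669251 in IL-27 and 199672 in PBS, so that 1 UMI was worth 1.49 and 5.01 CPM. Within PBS wells 1 and 2, 1 UMI was worth 9.26 and 10.9 CPM. By TMM scaling the counts were 98 higher and 27 lower. Of all 1213 genes, 167 (13.8%) had every IL-27 well above both PBS wells and 122 (10.1%) every IL-27 well below them. Of the 61 and 43 genes, 45 and 28 had wells apart in this way. Leaving out PBS well 2, the counts were 111 higher and 35 lower of 1055 genes. Without PBS well 1 they were 104 and 89 of 1039. The 10 highest and 10 lowest ratios are named where the wells of the groups did not overlap, and list genes are also named where they did.

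Itgb1, the integrin chain of receptors for matrix and vascular ligands, stayed higher in IL-27 under every alternative run. It was 689, 438 and 704 CPM in IL-27 wells 1 to 3 against 139 and 273 under PBS. The IL-27 wells lay apart, with a ratio of 3.07 (2.22 to 4.36), and among the other CD4 T cells the wells overlapped (191, 130 and 193 against 101 and 296). In cells of 2000 to 5000 UMIs its log2 ratio was 2.23, and over all alternatives run it was 1.17 to 2.23. S100a4, which is highest in effector and migrating T cells, was 188, 551 and 258 CPM against 185 and 98.2. IL-27 well 1 and PBS well 1 were nearly level. The ratio of S100a4 was 2.29 (1.55 to 3.50), 1 cell gave 50 of its 252 UMIs, and in cells of 2000 to 5000 UMIs its log2 ratio turned to -0.40. In the effector memory and residency list 5 of 18 measured genes were higher (S100a4, Lgals1, Anxa2, Vim, Itgb1) and 2 lower (Cd44, Cxcr6), with overlapping wells for Lgals1, Vim and Cxcr6.

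Most of the other genes named as higher in IL-27 are known from dividing cells. Pclaf, a partner of the replication clamp, was 41.2, 226 and 240 CPM in the IL-27 wells and had 0 UMIs in both PBS wells, and 1 cell gave 47 of its 124 UMIs. Hmgb2, a chromatin protein of dividing cells, was 330, 894 and 1108 CPM against 185 and 262, a ratio of 3.82 (2.81 to 5.32). Dut, an enzyme of nucleotide supply, was 197 against 50.1 CPM over the libraries, and Tuba1b, a tubulin, 371 against 175. A UMI of at least 3 of 10 proliferation genes (Mki67, Top2a, Rrm2, Ccnb2, Birc5, Cdk1, Pclaf, Tyms, Stmn1, Hist1h2ap) was found in 11 cells, 2, 2 and 7 in IL-27 wells 1 to 3 against 0 under PBS. All 11 are IL-27 cells picked for RNA of dividing cells, Pclaf included, so lower values of such genes without them follow in part from the choice. Without these 11 cells, an alternative added after the data had been seen, Pclaf was at 0 in both libraries. Hmgb2 then had a ratio of 1.23 (0.869 to 1.76), Tuba1b 1.38 (0.940 to 2.07) and Dut 1.77 (0.883 to 3.94). H2afz, a histone variant, had 1.26 (1.02 to 1.57) in place of 2.12. Anxa2, a membrane-binding annexin, went from 2.96 to 1.25 (0.656 to 2.53), and Vim and Lgals1 from 1.84 and 1.63 to 0.995 and 0.814. Itgb1 had 2.98 (2.14 to 4.25) and S100a4 2.13 (1.43 to 3.28). The counts were then 38 higher and 26 lower, over 981 in place of 1213 genes. Pfdn1, a prefoldin chaperone subunit (2.50, 1.33 to 5.17), and Fgfr1op2 (2.09, 1.19 to 3.96) completed the 10 highest.

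Of 7 measured costimulatory receptors 3 were lower in IL-27 than in PBS (Tnfrsf4, Tnfrsf9, Tnfrsf18), and of 3 inhibitory receptors 2 (Pdcd1, Tigit), and PBS well 2 was the highest well for all 5. Tnfrsf9, the costimulatory receptor 4-1BB, was 118, 47.1 and 105 CPM in IL-27 wells 1 to 3 against 213 and 502 under PBS, a ratio of 0.259 (0.180 to 0.372). Tigit was 53.0, 32.9 and 136 against 185 and 447 (0.269, 0.183 to 0.394). Pdcd1 was 118, 61.2 and 105 against 130 and 360 (0.400, 0.270 to 0.597). In each case PBS well 2 was highest and PBS well 1 lay closer to the IL-27 wells, for Pdcd1 near them. Without PBS well 2 the log2 ratios were -1.24, -1.16 and -0.46, against -1.94, -1.88 and -1.31 with it. In cells of 2000 to 5000 UMIs of all wells they were -0.70, -0.69 and -1.18. Tnfrsf18, the receptor GITR, was 177, 193 and 230 against 231 and 589 CPM. Its log2 ratio went from -0.95 to -0.18 without PBS well 2, and to -0.31 in cells of 2000 to 5000 UMIs. Tnfrsf4 was 271, 202 and 272 against 380 and 491 CPM, a ratio of 0.579 (0.444 to 0.761), and in cells of 2000 to 5000 UMIs its log2 ratio turned to 0.49.

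Traf1, an adaptor of TNF family receptors, was 97.1 against 175 CPM over the libraries (0.554, 0.362 to 0.861), and its log2 ratio was 0.04 in cells of 2000 to 5000 UMIs. Of 4 measured NF-kB and TNF receptor signalling genes Nfkb1 and Traf1 were lower and 0 higher. Pou2f2, a transcription factor of activated lymphocytes, was 112 against 235 CPM, but B cells held 359. Zfp36l1, an mRNA decay factor, was 341 against 656 CPM, with 895 in PBS well 2. Atp6v0c, a proton pump subunit (0.565, 0.405 to 0.795), and Cirbp, a cold-inducible RNA-binding protein (0.569, 0.389 to 0.843), completed the 10 lowest.

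**Figure D5:**
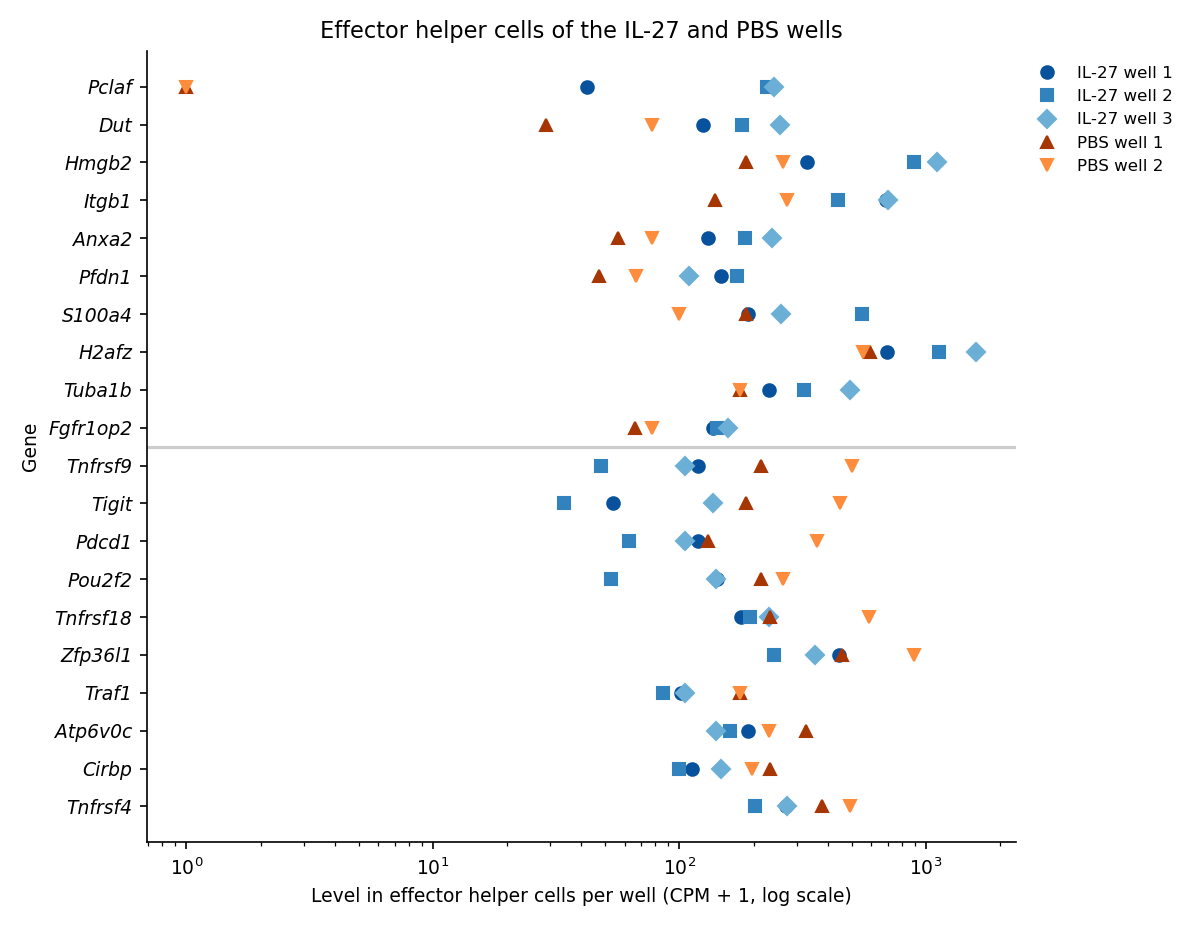
Level of the 10 genes with the highest (top) and the 10 with the lowest IL-27 over PBS ratios (bottom) in effector helper cells, as CPM plus 1 on a log axis, 1 symbol per well. The wells of the groups do not overlap for these genes, which is how they were chosen, and PBS well 2 lies farthest from the IL-27 wells for Tnfrsf9, Tigit and Pdcd1.

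The gate genes themselves can be described only within the rule. Maf was 300, 268 and 251 CPM in IL-27 wells 1 to 3 against 435 and 589 under PBS. All IL-27 wells were lower, with a ratio of 0.532 (0.414 to 0.685). Tnfsf8 was 271, 287 and 397 against 305 and 229 CPM, and Tnfsf11 147, 184 and 188 against 343 and 142, both overlapping between the groups. Cd40lg, which the rule did not use, had a ratio of 0.959 (0.621 to 1.52). The ratios of Icos, Il7r and Ccr6 were 0.855 (0.583 to 1.28), 1.05 (0.815 to 1.37) and 0.656 (0.347 to 1.30), so differences of these sizes were not detectable at this depth. The interferon response list had a median log2 ratio of 0.07, with 1 of 9 measured genes higher (Ifi27l2a, whose wells overlapped, since it was low in PBS well 2 alone) and 0 lower.

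Differences between the PBS wells show how far cells of 1 library can lie apart. At least 100 CPM in the higher well and 60 UMIs summed over the PBS wells were held by 412 genes. Of these, 16 (3.88%) were at least 2-fold higher in PBS well 2 and 6 (1.46%) at least 2-fold lower. Ccl5 was 1833 CPM in PBS well 2 against 37.0 in the first PBS well, and Nkg7 764 and 92.6. Thy1, a surface glycoprotein of T cells, was 905 and 241 CPM, against 200 to 259 in the IL-27 wells. Hspa5 and Pdia3, chaperones of the endoplasmic reticulum, were higher too, Hspa5 with 502 and 175.9 CPM and Pdia3 with 567 and 222. Zfp36l2, an mRNA decay factor, was 469 and 175.9. On the other side, Ramp1, a subunit of the receptor for the neuropeptide CGRP, was 164 against 611 CPM. Penk was 284 and 1037, Gpx1, a peroxidase, 164 and 546, and Ifi27l2a 1069 and 2435 CPM. Lars2 and Chd3 were 655 and 1444 and 185 and 407. These values come from 26 and 28 cells, and sex, mouse and well cannot be told apart in them.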

How the data were processed

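Live CD45+ cells from the stomachs of TxA23 mice were profiled by 5′ droplet RNA sequencing, with 1 deposited library per group. The authors deposited whole-number UMI counts per gene and barcode, made with Cell Ranger 3.0.0 on the build mm10 per the submitters' processing notes (the file headers name software 3.1.0). They held 20897 barcodes and 80121995 UMIs for IL-27 and 12276 and 43501501 for PBS. After the cell filters 20579 and 11793 cells remained, with medians of 3079 and 2958 UMIs. The libraries shared 112 barcodes, none in effector helper cells. Of 31053 gene IDs, 30934 were found in the GENCODE annotation, and counts of genes sharing a symbol were summed.

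Counts were summed over cells of a set, per well or library, and given as CPM, with log2 ratios on CPM plus a pseudocount of 1. Genes needed 50 CPM in the higher set and 100 UMIs summed over both sets for the comparison with other CD4 T cells. For IL-27 against PBS they needed 100 CPM in the higher library and 100 UMIs summed over both. Shares have exact binomial, levels exact Poisson and ratios exact conditional 95% intervals, which cover counting error only, since cells of 1 library are not replicates. No p-value was computed. Doublets were marked per well with Scrublet in scanpy 1.11.5 (4.17%, 2.53% and 2.00% of the cells of the IL-27 wells, and 1.58% and 0.0183% of those of the PBS wells, the last too few for the caller to have worked). None of the effector helper cells was marked. Intervals were tested on simulated data of independent Poisson counts, the model they assume. That test could not show how they behave where many UMIs come from 1 cell. Python 3.11.15, numpy 2.4.6, scipy 1.17.1, pandas 2.3.3 and matplotlib 3.10.9 were used.

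Genes were named by rule: the 12 highest and 12 lowest ratios to other CD4 T cells on 1 side in every well, the 10 highest and 10 lowest for IL-27 against PBS with wells apart, and the 6 highest and 6 lowest between the PBS wells. Receptor, sex-linked, mitochondrial, ribosomal and unnamed genes were left out, and genes of the lists could also be named. Some genes are not reported here. The effector helper cells and the gene lists were chosen with earlier results of these data known. Alternatives changed the cell filter, gate, depth, doublets, scaling, pseudocount, low-value filter and well weighting, or left out 1 well.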

Additional observations from a re-analysis of the deposited data

How the results depend on the processing

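The share of effector helper cells among all cells stayed higher in IL-27 under all alternatives run, with ratios of 1.08 (thinned) to 1.78 (cells with Xist only), and of 1.30 to 1.58 with 1 well left out. Among CD4 Foxp3-negative T cells the ratio of 0.796 turned to 1.424 in cells with Xist only. It ranged from 0.432 without PBS well 1 to 1.134 without PBS well 2. Cells with Xist only held 1 effector helper cell of PBS well 2, so that run nearly leaves out this well. The cause was not tested. With a filter of 20 CPM and 30 UMIs, which tests more genes, the 71 and 37 genes at least 2-fold higher and lower than in other CD4 T cells became 243 and 104, and the 61 and 43 genes higher and lower in IL-27 became 478 and 431. In cells of 2000 to 5000 UMIs, fewer by construction (78 IL-27 and 30 PBS effector helper cells), these counts were 43 and 22 of 2195 genes and 23 and 9 of 473. By TMM scaling the IL-27 counts were 98 and 27. In cells with Xist only 109 of 800 genes were higher. Without the 11 cells with proliferation genes (added after seeing the data) the counts were 38 and 26 of 981 genes. With 1 well left out, the counts against other CD4 T cells ranged from 42 (without IL-27 well 3, and 47 without IL-27 well 2) to 71 and from 32 to 43. They came from 2901 and 2907 genes without IL-27 wells 3 and 2, against 3098 with all wells. The IL-27 counts ranged from 38 (without IL-27 well 3) to 111 (without PBS well 2, and 104 without PBS well 1). Those lower ranged from 26 (without IL-27 well 3) to 89 (without PBS well 1). The genes tested were 741 without IL-27 well 3, 1055 without PBS well 2 and 1039 without PBS well 1, against 1213 with all wells. The smaller IL-27 over PBS counts without IL-27 well 3 were thus out of fewer genes, and their cause was not tested. In cells of 2000 to 5000 UMIs the log2 IL-27 over PBS ratios of S100a4, Traf1 and Tnfrsf4 turned to -0.405, 0.044 and 0.487. The cause was not tested. Of the other values of named genes, 36 moved and 241 stayed for IL-27 against PBS, and 20 moved and 268 stayed against other CD4 T cells. Of list medians 4 moved and 391 stayed. Part of the values that stayed could not have moved. The low-value filter does not change the ratio of a gene. No effector helper cell was marked as a doublet, so leaving out doublets could not change an IL-27 over PBS ratio. No paired analysis was possible because each group is 1 library and the labels carry no replicate numbers. With 54 PBS cells in all, genes at low levels had too few UMIs to compare.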

Other observations

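T cell receptor V genes were not part of any comparison above, and their values are uncertain, since V genes share near-identical sequence. In effector helper cells Trbv1 held 23.3% of all Trbv UMIs and was found in 122 of the 189 cells. Its share was 28.4% in the other CD4 T cells, 42.2% in the cells with both gate sums and 46.9% in those with Lag3, Izumo1r or Myb alone. By well its share in effector helper cells was 23.1%, 12.3% and 21.6% after IL-27 and 34.7% and 40.4% under PBS. Trav4-3 held 27.9% of the Trav UMIs of effector helper cells and Trav4-4-dv10 22.7%, against 19.1% and 15.02% in the other CD4 T cells. They were found in 30 and 36 cells, so these shares rest on few cells. A Trdc or Tcrg-C1 UMI, of the gamma-delta receptor, was found in 17 effector helper cells, all of which also held a UMI of Trac, Trbc1 or Trbc2, as did 161 of the 172 cells without one (93.6%).

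Ccr8, a chemokine receptor of tissue T cells, and Itgae, the integrin chain CD103, were looked at after their values had been seen. Ccr8 was 11.8, 0 and 10.5 CPM after IL-27 and 46.3 and 185 under PBS, from 27 UMIs in 15 cells. Itgae was 5.89, 0 and 31.4 CPM after IL-27 and 83.3 and 185 under PBS, from 36 UMIs in 16 cells, 11 of the UMIs in 1 cell. Both were below the UMI filter of the comparison.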
